A study of Mus musculus with 3 samples.

Results

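The genes described here are 10 genes of the ATF4 pathway and of amino acid stress, Chac1, Atf4, Ddit3, Trib3, Asns, Sesn2, Psat1, Phgdh, Atf5 and Ddit4, out of 18193 named genes on the array. They were chosen by name, with the array values already in view: Chac1 had stood among the genes furthest above wild type in both depleted samples. The contrast of depleted with wild type epithelium is therefore given for them as a description, with no test. All 20 probe sets (the array's measuring units) annotated to one of these symbols alone are reported.

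RNA came from the follicle-associated epithelium of the small intestine, the cell layer over the lymphoid follicles, in untreated C57BL/6 mice. There were 2 samples depleted of RBP-J, the DNA-binding partner of Notch, from VillinCre-Rbpjflox/flox mice, and 1 wild type sample. The Villin promoter drives Cre in intestinal epithelium, so other cells in the tissue keep Rbpj. The labels give no age or sex and do not say whether the depleted samples came from separate or pooled animals, and what separates them may be technical.

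ATF4 is a leucine zipper transcription factor whose mRNA is translated better when the initiation factor eIF2alpha is phosphorylated, as happens when amino acids run short or proteins misfold in the endoplasmic reticulum. It then raises genes for amino acid synthesis, transport and tRNA charging, together with factors that hold back growth signalling or end the response. Because ATF4 itself is controlled largely at translation, its mRNA level and the levels of its target mRNAs need not move together. In intestinal epithelium this response is known from amino acid deprivation and endoplasmic reticulum stress.

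The promoters of these genes were searched for the core of the C/EBP-ATF response element, the site that ATF4 binds with a C/EBP partner, because it is the feature that the pathway's targets are known to share. All 10 genes had at least 1 promoter in the RefSeq table of build GRCm38.p6, 12 promoters in all, each reaching from 250 bases before the transcription start to 50 after it. The letters TGATGNAA, read on both strands, occurred in promoters of 3 of the 10 genes, Chac1, Asns and Trib3, against 4.51% of all 27025 genes in the table and 3.97% of its 32851 promoters. The genes were chosen as members of this pathway, so a share above that of all genes was likely beforehand and nothing is read from it. The 3 stretches follow, each on the gene's own strand with the matching letters in capitals. The Chac1 stretch is chr2:119350992-119351241 (plus strand), the 250 bases before the start, with the match from -193 to -186 on the opposite strand. The Asns stretch is chr6:7693210-7693309 (minus strand), the 100 bases before the start, with the match from -23 to -16. The Trib3 stretch is chr2:152344028-152344057 (minus strand), 30 bases inside the transcript, with the match from 15 to 22 after the start on the opposite strand.
Chac1: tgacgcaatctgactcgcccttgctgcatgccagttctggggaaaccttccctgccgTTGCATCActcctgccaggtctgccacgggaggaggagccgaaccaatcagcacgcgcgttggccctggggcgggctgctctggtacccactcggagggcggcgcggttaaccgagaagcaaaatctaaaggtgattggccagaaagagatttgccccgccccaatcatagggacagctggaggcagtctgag
Asns: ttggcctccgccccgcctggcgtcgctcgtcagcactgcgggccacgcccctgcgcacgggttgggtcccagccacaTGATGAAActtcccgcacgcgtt
Trib3: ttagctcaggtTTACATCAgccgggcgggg
The letters were not found in these windows of the other 7 genes, which says nothing of sites elsewhere.

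Values are intensities in multiples of each array's median. Differences are on the log2 scale after adding a pseudocount of 0.248, depleted minus wild type, and are given for the first and then the second depleted sample. Over the 11885 genes tested the median difference was -0.003 in the first and 0.22 in the second, and a difference in the second has to be set against that shift. The targeted gene Rbpj read 2.72 and 5.74 in the depleted samples and 7.15 in wild type at its brightest probe set, 4.14 and 4.92 against 5.37 at another, and 2.30 and 4.21 against 3.79 at the remaining one. Rbpj was thus nearer to wild type in the second depleted sample than in the first, and above wild type there at 1 probe set. Samples are called depleted here after their labels. No source used here says whether these probe sets fall within the stretch removed by Cre, and readings from elsewhere in Rbpj would say nothing of its loss. The 3 samples also split by sex-linked RNA in the same way as by genotype: Xist read 42.8 and 43.4 in the depleted samples and 0.297 in wild type, while the Y-linked Eif2s3y, Kdm5d and Uty were at or below 0.219 in the depleted samples and at or above 3.02 in wild type. Sex-linked RNA and genotype cannot be told apart here. The defining epithelial markers were bright in every sample: Epcam read 129 and 153 in the depleted samples and 109 in wild type, Vil1 85.3 and 78.6 against 70.7, and Cdh1 81.5 and 81.2 against 65.6. The M cell marker Gp2 read 9.90 and 32.6 in the depleted samples and 19.8 in wild type. The follicle chemokine Ccl20 read 45.2 and 74.6 against 49.9. Both were split, while of the 8 markers of M cells and follicle epithelium 5 were higher in both depleted samples and 0 lower. That list had median differences of 0.08 and 0.61 and summed to 349 and 464 against 325.

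Cell marker lists differed between the samples, and with 1 wild type sample this is not read as an effect of genotype. For comparison, the 4 measured reference genes summed to 392 and 511 in the depleted samples and 387 in wild type. Of 9 epithelial markers 8 were higher in both depleted samples, with median differences of 0.21 and 0.32, and the list summed to 808 and 918 in the depleted samples and 712 in wild type. The 8 goblet cell markers, 6 of them higher in both, summed to 780 and 652 against 485. The 7 measured Paneth cell markers, 5 of them higher in both and 1 lower, summed to 578 and 503 against 407. The 7 measured absorptive enterocyte markers, 6 of them higher in both and 0 lower, summed to 907 and 1040 against 769. The 8 measured B cell markers, 4 of them lower in both and 1 higher, summed to 18.1 and 40.9 against 41.5. Of 7 tested T cell markers 2 were higher in both and 0 lower, and of 6 plasma cell markers 1 and 1. Of 5 macrophage and dendritic cell markers 2 were higher in both and 1 lower, and of 3 stromal markers 1 and 1. None of these markers was at 0. The 3' control probe set of Gapdh over its 5' one, a sign of RNA quality, gave ratios of 2.28 and 1.54 in the depleted samples and 1.83 in wild type, and that of Actb gave 1.15 and 1.02 against 1.11. The part of these differences in the values below was not tested. In tissue RNA, fewer cells of a type and less RNA per cell cannot be told apart.

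Across the 10 genes, each at its brightest probe set, 6 were higher than wild type in both depleted samples, 0 were lower in both and 4 were split. Over all genes tested 39% were higher in both and 19.5% lower in both. After each depleted sample was centred on its own median difference, 5 of the 10 were higher in both, against 29.9% of all genes. At least 2-fold higher in both was 1 of the 10, Chac1, against 0.841% of all genes, and at least 2-fold lower in both was 0 of the 10, against 0.488%. Over all genes, 100 were past this fold upward and 58 downward as deposited, 72 and 86 after centring, and 85 and 75 once the arrays were scaled to a common 75th percentile. Because the members were chosen in view of this contrast, nothing is read from these shares.

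**Figure D1:**
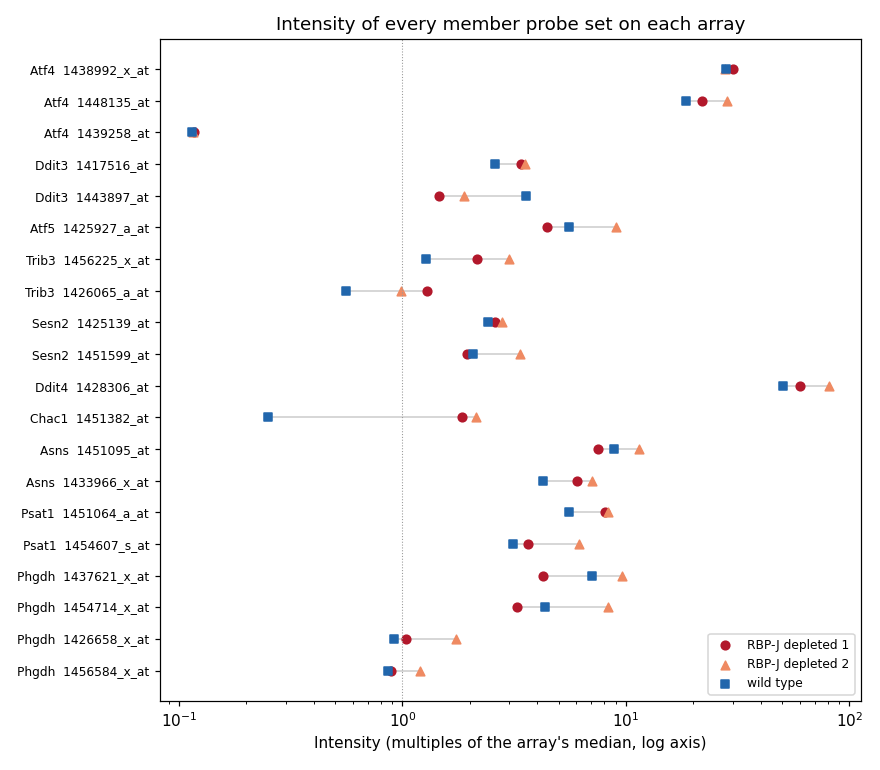
Intensity of each of the 20 probe sets in the 2 RBP-J depleted samples (circle and triangle) and the wild type sample (square), in multiples of the array median on a log axis; the dotted line marks the median. Chac1 shows the widest gap, with both depleted samples at or above 1.85 and wild type at 0.249, while the second Ddit3 probe set is the one where wild type lies above both depleted samples.

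Chac1, which breaks glutathione down by cutting off its gamma-glutamyl group, was the member furthest from wild type. Its only probe set, 1451382_at, read 1.85 and 2.12 in the depleted samples and 0.249 in wild type. Both depleted values lay above the array median and close to each other, and the wild type value lay at the dim end of its array, whose 25th percentile was 0.245. The differences were 2.08 and 2.25. With wild type so dim, their size follows the pseudocount: the mean of the 2 was 2.17 as given, 2.76 with a pseudocount of 0.05, 1.26 with 1 and 0.41 with 5. Under quantile normalization it was 2.16 and after centring 2.06. Chac1 was among the genes kept for testing because of its depleted values, since its wild type value lay under the intensity minimum of 0.598. Its paralog Chac2, a slower enzyme on the same substrate, read 3.14 and 2.67 in the depleted samples and 2.31 in wild type.

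Atf4 mRNA was bright, and its probe sets did not go one way. Probe set 1438992_x_at read 30.1 and 27.7 in the depleted samples and 28.0 in wild type, so wild type lay between them. Probe set 1448135_at read 21.9 and 28.4 against 18.6, with both depleted samples above wild type and differences of 0.23 and 0.60. The last one, 1439258_at, lay far under the array median in every sample, at 0.117 and 0.115 against 0.114.

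Ddit3 encodes CHOP, a leucine zipper factor that ATF4 induces and that is linked to cell death under prolonged stress. Its probe sets opposed each other. The brightest by mean, 1417516_at, read 3.38 and 3.54 in the depleted samples and 2.60 in wild type, with differences of 0.35 and 0.41. At 1443897_at the order was turned, with 1.46 and 1.89 in the depleted samples against 3.58 in wild type and differences of -1.16 and -0.84. The mean of both probe sets put Ddit3 below wild type, by -0.41 and -0.22, so no direction is given for the gene. No source used here places these probe sets along the Ddit3 transcript.

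Atf5, a leucine zipper factor related to ATF4 and also under translational control, had 1 probe set. It read 4.42 and 8.99 in the depleted samples and 5.55 in wild type, with wild type between them and differences of -0.31 and 0.67. The depleted samples were thus further apart from each other than either was from wild type.

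Trib3, a pseudokinase that binds ATF4 and dampens its activity, was higher in both depleted samples at both of its probe sets. Probe set 1456225_x_at read 2.163 and 2.996 in the depleted samples and 1.28 in wild type, with differences of 0.66 and 1.09. Probe set 1426065_a_at read 1.29 and 0.983 against 0.556, with differences of 0.93 and 0.61. Its mean passed the intensity minimum of 0.598 because of its depleted values, since its wild type value lay under it. The single wild type value lay below both depleted values at each, as at 37% of all probe sets with 1 symbol over that minimum. The order of the depleted samples differed between the probe sets.

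Sesn2 and Ddit4 both restrain the growth kinase complex mTORC1, Sesn2 as a leucine sensor. For Sesn2, 1425139_at read 2.58 and 2.80 in the depleted samples and 2.42 in wild type, with differences of 0.08 and 0.19. Probe set 1451599_at read 1.95 and 3.35 against 2.06, with differences of -0.07 and 0.64, so there wild type lay between the depleted samples and the second stood above it. Ddit4 read 60.2 and 80.9 in the depleted samples and 50.5 in wild type, with differences of 0.25 and 0.68. The 4 measured reference genes had median differences of 0.07 and 0.51 in the same samples. Ddit4 lay above that median in each depleted sample by under 0.2 on the log2 scale. The medians over all genes tested were lower, at -0.003 and 0.22. Other members are not set against the reference genes here.

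Of the enzymes of amino acid synthesis, Psat1 was higher in both depleted samples at both probe sets. It makes phosphoserine on the way to serine. Probe set 1451064_a_at read 8.05 and 8.33 in the depleted samples and 5.55 in wild type, with differences of 0.52 and 0.57. Probe set 1454607_s_at read 3.63 and 6.14 against 3.12, with differences of 0.20 and 0.92. In the first depleted sample Psat1 thus lay above wild type by more at one probe set than at the other.

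Asns makes asparagine from aspartate and glutamine and is a classical ATF4 target. Probe set 1451095_at read 7.51 and 11.4 in the depleted samples and 8.87 in wild type, with wild type between them. Probe set 1433966_x_at read 6.02 and 7.06 against 4.26, with both depleted samples higher and differences of 0.48 and 0.70. The probe sets of Asns therefore disagreed for the first depleted sample.

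Phgdh, which starts serine synthesis from 3-phosphoglycerate, separated the depleted samples from each other. Probe set 1437621_x_at read 4.25 and 9.59 in the depleted samples and 7.02 in wild type, and 1454714_x_at read 3.25 and 8.30 against 4.34. At both, wild type lay between the depleted samples, which differed by 1.13 and 1.29 on the log2 scale, the second minus the first. The median size of that gap over all genes tested was 0.38, and over the 10 members it was 0.30. The dimmer 1426658_x_at read 1.03 and 1.74 against 0.914, and 1456584_x_at read 0.889 and 1.19 against 0.859. All 4 are of a kind (_x_at) that Affymetrix marks as open to cross-hybridization with other transcripts. So are 1438992_x_at of Atf4, 1456225_x_at of Trib3 and 1433966_x_at of Asns.

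Over all probe sets, 13 of the 20 were higher in both depleted samples, 1 was lower in both and 6 were split. Of these, 19 had a mean over the intensity minimum. Of the 19, 12 were higher in both, against 37% of the 22612 probe sets with 1 symbol over that minimum. The Chac1 probe set and Trib3 1426065_a_at are among the 12, with wild type values under that minimum. At least 2-fold higher in both was 1 of the 19, against 0.889%. Without Chac1, the median differences of the other 9 genes were 0.10 and 0.44, against 0.18 and 0.50 with it and -0.003 and 0.22 over all genes tested.

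**Figure D2:**
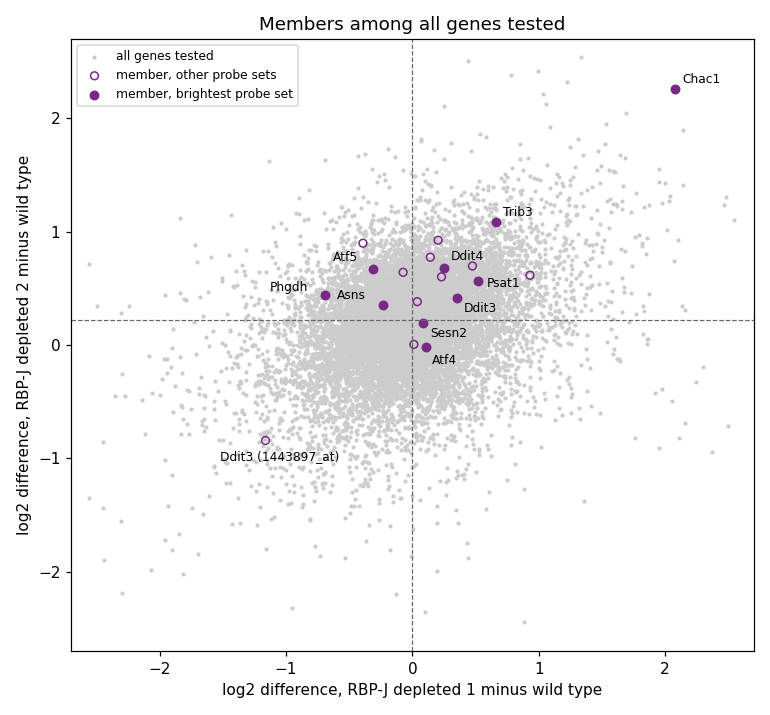
Log2 difference from wild type in the first RBP-J depleted sample (horizontal) and in the second (vertical) for all 11885 genes tested (grey) and the members (filled for the brightest probe set, open for the others); dashed lines are the medians over all genes, and 15 genes lie outside the axes. Chac1 stands at 2.08 and 2.25, apart from the other members, and Phgdh, Atf5 and Asns lie to the left of the vertical line and above the horizontal one.

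Other genes of the pathway were followed through 9 lists holding 107 genes, of which 96 were tested, 6 lay under the intensity minimum and 5 are not analysed here. By limma 0 of the 96 were called in either direction at an adjusted p under 0.05, against 0.0841% of all genes tested. With 1 wild type sample and few genes called at all, this is not read as an absence of change. Of the 96, 42 were higher in both depleted samples and 15 lower in both, with medians of 0.005 and 0.27. These medians lie close to those over all genes tested, of which 39% were higher in both and 19.5% lower. After centring, 31 of the 96 were higher in both, against 29.9% of all genes, and 26 were lower. Values in the paragraphs on these lists are from the brightest probe set, but other probe sets often differed: of the 27 genes named from the lists, 19 had another one over the intensity minimum, and for 4 of these (Hyou1, Mthfd2, Nfe2l2 and Slc38a1) every such probe set lay on the same side of wild type in both depleted samples. For 10 at least 1 was split between the depleted samples, and for 5 (Eif2ak3, Gclc, Impact, Slc7a1 and Trib2) at least 1 lay on the opposite side in both. None of the 96 reached a 2-fold distance from wild type in both depleted samples, in either direction.

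Upstream of ATF4, 6 of 11 tested kinases, phosphatases and regulators of eIF2alpha were higher in both depleted samples and 2 lower in both, with median differences of 0.06 and 0.18. Eif2ak3, which encodes PERK, the kinase that senses misfolded protein, read 5.96 and 6.57 in the depleted samples and 3.84 in wild type, while a dimmer probe set was lower in both at 2.45 and 2.52 against 3.31 and another was higher at 1.72 and 1.69 against 0.953. Eif2ak1, which encodes the haem-regulated kinase, read 10.4 and 12.7 against 8.23, with another probe set split at 5.50 and 11.2 against 7.07. Impact, which restrains the amino acid sensor GCN2, was lower in both at 1.48 and 1.72 against 2.44, as was a dimmer probe set at 0.733 and 1.08 against 1.72, while a further one read 0.890 and 0.782 against 0.757. None of these passed the test.

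Factors that partner or follow ATF4, mostly leucine zipper factors, had medians of -0.001 and 0.18. Of the 8 tested, 4 were higher in both depleted samples and 1 was lower. Atf6, a sensor of endoplasmic reticulum stress, read 12.1 and 11.6 in the depleted samples and 7.30 in wild type, with a dimmer probe set split at 3.003 and 3.97 against 3.43. Jdp2 read 2.49 and 2.25 against 1.41, but a dimmer probe set gave differences of -0.39 and -0.97. Nfe2l2, the oxidative stress factor NRF2, read 33.1 and 32.7 against 36.4.

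The remaining enzymes of serine, one-carbon and amino acid synthesis had medians of -0.07 and 0.12, with 3 of 11 higher in both and 1 lower. Gpt2, a mitochondrial alanine transaminase, read 2.82 and 0.942 in the depleted samples and 0.769 in wild type, so its difference lay mostly in the first, and its other probe sets over the minimum were split, higher in the first depleted sample and lower in the second. Mthfd2, of mitochondrial folate metabolism, read 2.46 and 2.29 against 2.09, and Cbs, of cysteine synthesis from homocysteine, read 0.896 and 0.693 against 1.15.

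Amino acid transporters that ATF4 is known to induce had medians of 0.17 and 0.31, with 6 of 9 higher in both and 1 lower. Over all genes tested 39% were higher in both and 19.5% lower. After centring, 3 of the 9 were higher in both, against 29.9% of all genes, and 1 was lower. Slc3a2, the heavy chain of several transporters, read 33.7 and 31.7 in the depleted samples and 27.7 in wild type. Slc38a1, a glutamine carrier, read 12.1 and 15.4 against 10.6, while Slc7a1, a carrier of cationic amino acids, read 14.1 and 18.995 against 23.8. Another probe set of Slc7a1 was higher in both at 10.1 and 12.0 against 9.43, and a further one was split with differences of -0.47 and 1.15, so its direction depended on the probe set.

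Cytosolic aminoacyl-tRNA synthetases, which load amino acids onto tRNA, had medians of -0.06 and 0.16 over 19 genes, with 6 higher in both and 4 lower. Aars read 8.49 and 8.68 in the depleted samples and 5.59 in wild type. Hars read 20.3 and 21.2 against 15.8, and Gars 15.2 and 22.5 against 13.9. Dimmer probe sets of Aars and Hars were split, with differences of -0.24 and 0.46 and of -0.09 and 0.25. The list as a whole lay slightly under the median of all genes in each depleted sample.

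Other effectors of the stress response had medians of 0.05 and 0.36, with 6 of 14 higher in both and 1 lower. Eif4ebp1, a brake on translation initiation, read 7.33 and 6.65 in the depleted samples and 4.61 in wild type, with a dimmer probe set split at 2.74 and 4.17 against 3.70. The death gene Bbc3 read 1.55 and 0.541 against 0.358, and the secreted Stc2 read 1.95 and 0.873 against 0.659, so that for both the difference lay mostly in the first depleted sample. Another probe set of Stc2 was split, at 1.09 and 0.428 against 0.523.

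Paralogs of the members had medians of 0.35 and 0.34, with 4 of 5 higher in both, against 39% of all genes tested. After centring, 2 of the 5 were higher in both, against 29.9% of all genes. Sesn3 read 4.36 and 6.28 in the depleted samples and 3.37 in wild type, and a dimmer probe set was split at 1.94 and 4.43 against 2.73. Trib2 read 2.67 and 1.04 against 0.765, mostly a difference of the first depleted sample, while another probe set was lower in both at 0.616 and 0.478 against 0.862.

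Genes that make or recycle glutathione, the substrate of Chac1, had medians of -0.11 and 0.23. Of the 6, 0 were higher in both and 3 lower, against 39% and 19.5% of all genes tested. After centring, 1 was higher in both and 3 were lower. With averaged probe sets the medians were -0.06 and 0.26. A link to Chac1 was not tested. Gss, which completes glutathione synthesis, read 18.0 and 15.5 in the depleted samples and 21.9 in wild type, with another probe set split at 15.2 and 21.3 against 18.5. Oplah, of the gamma-glutamyl cycle, read 0.771 and 0.261 against 0.865. Gclc, the catalytic subunit of the rate-limiting ligase, read 21.8 and 22.9 against 23.4, but its other probe set was higher in both at 17.7 and 15.3 against 11.7, so that its place among the lower genes rests on the brightest one.

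Chaperones of the endoplasmic reticulum, which the ATF6 and XBP1 arms of the unfolded protein response control, had medians of 0.01 and 0.32, with 7 of 13 higher in both and 2 lower. Canx read 43.6 and 53.6 in the depleted samples and 36.5 in wild type, with 1 of its other probe sets split at 6.91 and 9.55 against 7.69, and Hyou1 58.8 and 68.9 against 55.0. Pdia4 was lower in both, at 13.7 and 20.2 against 23.0.

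**Figure D3:**
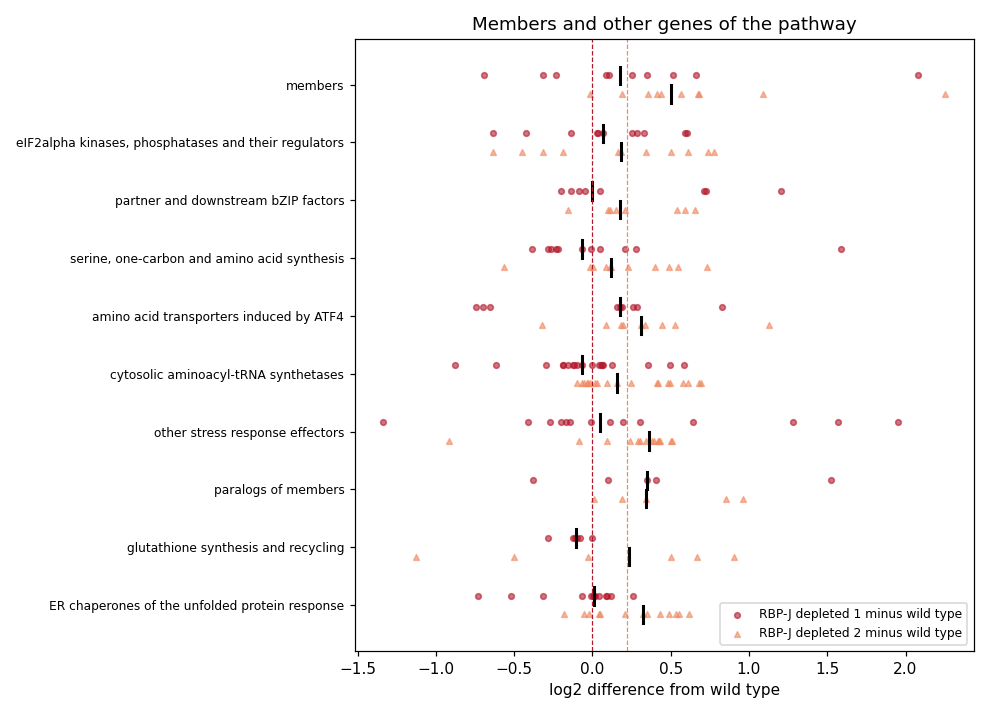
Log2 differences from wild type in the first (circles) and second (triangles) RBP-J depleted sample for the 10 members at their brightest probe set and for the tested genes of each pathway list; black bars are medians and dashed lines the medians over all genes tested. The members have medians of 0.18 and 0.50, and the list of glutathione synthesis genes has medians of -0.11 and 0.23.

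Of the 81 list genes with a promoter in the table, 15 carry the response element letters there, against 4.51% of all genes. The lists were drawn up around this pathway, so nothing is read from that share. Of the 15, 5 were aminoacyl-tRNA synthetases (Aars, Gars, Iars, Tars and Yars). Of the 13 that were tested, 7 were higher in both depleted samples and 1 lower, with medians of 0.13 and 0.21, while 39% of all genes tested were higher in both and 19.5% lower. Among the members that carry the letters, Chac1 and Trib3 were higher in both depleted samples at each of their probe sets, and Asns at 1 of its 2. Psat1 and Ddit4, without the letters in these windows, were also higher in both at each probe set, and Chac1 was chosen for its high values, so nothing is read from this.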

How the data were processed

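Per the labels' protocols, total RNA was turned into biotin-labelled cRNA for Affymetrix arrays. The deposited values are linear intensities, made by the authors with MAS5, per the submitters' processing notes. Its version, the scaling and detection calls are not given in the sources used here. Each array's median is 1 over 45101 probe sets. Of 45037 that are not controls, 34945 had 1 symbol in the platform annotation, and 34741 of these matched RefSeq (GRCm38.p6) by Entrez number. The 932 with several symbols and the 9160 unnamed stayed out of gene results.

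Values were used as deposited, as log2(value + 0.248), the 25th percentile of all values. A gene was represented by its brightest probe set, and 11885 genes with a mean at or above 0.598 (the 40th percentile) were tested in R 4.3.3 with limma 3.58.1 (lmFit, eBayes with an intensity trend, Benjamini-Hochberg over all of them). Only the 2 depleted arrays give a spread (1 residual and 600 prior degrees of freedom), so p-values rest on a spread pooled over genes and assume that wild type varies alike. For arrays, their number limits the precision.

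Named genes are every member and, of each list, the 3 that lay furthest on one side of wild type, ranked by the nearer of the depleted samples, with Rbpj, the sex-linked genes and the defining markers. The members and lists were chosen with earlier results of these data known. Settings tried were other pseudocounts, intensity minimums, scalings and probe set rules, eBayes without trend, and leaving out each depleted sample.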

Additional observations from a re-analysis of the deposited data

How the results depend on the processing

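The number of genes called by limma was 10, with 5 higher and 5 lower. It was 1 with no intensity minimum, 6 with the minimum at the 60th percentile, and 4 each after quantile normalization, scaling to the same 75th percentile, or centring. No pathway gene was called under any setting that gave a test. Among the genes called in the main setting were the sex-linked Xist, Eif2s3y, Kdm5d and Uty, which split the samples as genotype does. Genes past 2-fold on one side of wild type in both depleted samples numbered 158. They were 38 with a pseudocount of 1, 7 with 5 and 260 with 0.05, 286 with no minimum, 66 at the 60th percentile and 83 with averaged probe sets. In the second or the first depleted sample alone they were 618 and 763. Member probe sets past that fold numbered 1, Chac1. They were 0 with a pseudocount of 5 and 2 with the same 75th percentile or after centring, where Ddit3 1443897_at was past it downward. They were 2 in each depleted sample alone, with Trib3 upward in the second and Ddit3 1443897_at downward in the first.

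The mean difference of several members was small and changed sign. That of Atf4, 0.043, became -0.13 after quantile normalization, -0.028 with a common 75th percentile and -0.068 after centring, and was -0.019 and 0.10 without the first and the second depleted sample. That of Asns, 0.060, became -0.056, -0.010 and -0.051 under the same scalings, and was 0.35 and -0.23 without the first and the second. Averaged probe sets turned Ddit3 to -0.31 and Phgdh to 0.20. Without the first and the second depleted sample Phgdh was at 0.44 and -0.69 and Atf5 at 0.67 and -0.31. Chac1, Trib3, Psat1, Ddit4 and Sesn2 had a positive mean difference under each setting run. As each was higher in both depleted samples, other pseudocounts or intensity minimums, or leaving out a sample, could not turn that sign. After centring, Sesn2 was split at 0.086 and -0.035. List medians that turned were those of the synthetases (-0.061), glutathione genes (-0.14) and chaperones (-0.097) after quantile normalization, and of glutathione genes (-0.038) and chaperones (-0.0073) after centring. Without the first and the second depleted sample the list of ATF4 partner factors was at 0.18 and -0.00089. Likewise the serine list was at 0.12 and -0.065, the synthetases at 0.16 and -0.064 and the glutathione genes at 0.23 and -0.11. The cause was not tested. No paired analysis was possible because wild type has 1 sample. With no detection calls, the floor under dim values such as that of Chac1 in wild type is unknown.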

Other observations

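Another pair of probe sets is annotated to Phgdh together with a predicted gene and entered no gene result. One, shared with Gm8096, read 0.844 and 1.78 in the depleted samples and 0.905 in wild type, and the other, shared with Gm6756, read 1.07 and 1.36 against 1.64.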
